A study of Mus musculus with 104 samples.

Results

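The genes described here encode the nuclear subunits of mitochondrial oxidative phosphorylation, measured as RNA in mouse embryos that lack Kmt2b, a histone H3 lysine 4 methyltransferase, or both Tet1 and Tet2, which encode enzymes that oxidize 5-methylcytosine. They were taken by symbol: every gene whose name begins with Ndufa, Ndufb, Ndufc, Ndufs, Ndufv, Uqcr, Cox4 to Cox8 or Atp5, together with Sdha to Sdhd, Cyc1 and Cycs. This gave 94 of 22565 genes in the Kmt2b RNA table and the same 94 of 22593 in the Tet1/2 table. Of these, 36 belong to complex I, 4 to complex II, 9 to complex III, 1 is cytochrome c, 20 belong to complex IV, 15 to complex V and 9 encode no subunit (Ndufaf1 to Ndufaf7, Atp5sl and Atp5s, mostly assembly factors whose names match). Groups were Kmt2b-/- (KO) and WT epiblasts at E6.5 (3 samples each), KO and WT heads of E8.5 embryos (2 and 3) and E9.5 embryos (1 and 3), where the KO sample is labelled head but its column is named Em and the WT column Head, and Tet1-/-;Tet2-/- (DKO) epiblasts at E6.5 (2), DKO heads at E8.5 (2) and WT heads at E8.5 (2). The labels give these genotypes without a driver, clone or strain; crosses of DBA2 males with C57BL/6N females are stated for the chromatin profiling of the series. Litters are not given for the replicates, so p-values measure the spread between these samples only, which may be technical.

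Complexes I to IV pass electrons from NADH and succinate to oxygen, complexes I, III and IV pump protons out of the mitochondrial matrix as they do so, and complex V, the ATP synthase, uses that gradient to make ATP. Complex I takes electrons from NADH through a flavin and iron-sulphur core surrounded by accessory subunits, complex II oxidizes succinate, complex III hands electrons to the mobile carrier cytochrome c, and complex IV reduces oxygen. Several complex IV subunits and the c ring of complex V exist as isoforms from separate genes, some of them used mainly in heart and skeletal muscle, testis or under low oxygen. The subunits encoded by mitochondrial DNA were not analysed here.

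The Kmt2b table holds 1 merged column of FPKM (fragments per kilobase of transcript, scaled to the library's mapped fragments) per group, so its differences are sizes without an error or a p-value. The Tet1/2 table holds 1 column per library, and the names of its 3 WT epiblast columns give no set. They were taken as the WT epiblasts of the Kmt2b set, the only such group in the labels. In DKO against WT epiblasts, the sample set and the genotype therefore cannot be told apart. Differences are on the scale of log2(FPKM + 1), on which 1 is 2-fold, and FPKM give no read depth. The targeted gene Kmt2b, named Wbp7 in the table, had 0.308, 0.133 and 0.0349 FPKM in KO at E6.5, E8.5 and E9.5, against 0.701, 0.6003 and 1.20 FPKM in WT. Tet1 had 1.28 and 1.30 FPKM in DKO heads, against 2.55 and 3.33 FPKM in WT heads, and 3.82 and 2.92 FPKM in DKO epiblasts, against 4.77, 6.29 and 5.03 FPKM in WT epiblasts. Tet2 was under 1 FPKM in every library of the Tet1/2 table. All 5 epiblast markers examined reached 1 FPKM in every epiblast column, and all 5 neural plate and brain markers did so in every head column. In bulk tissue, fewer cells of a type and less RNA per cell cannot be told apart.

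The oxidative phosphorylation genes were among the abundant RNAs of every tissue. Together the 94 genes held 5.19%, 5.08% and 5.29% of the summed FPKM in Kmt2b KO at E6.5, E8.5 and E9.5, against 5.37%, 5.33% and 6.20% in WT. Their share was 4.70% and 4.77% in DKO epiblasts, against 5.07%, 5.59% and 5.27% in WT epiblasts, and 5.22% and 5.14% in DKO heads, against 5.12% and 5.25% in WT heads. The DKO epiblasts thus lay below all WT epiblast libraries, while the head libraries of both genotypes overlapped. The median FPKM of a member in WT E6.5 epiblasts (merged column) was 160.4 for complex I, 164.2 for complex II, 338.6 for complex III, 104.6 for complex IV and 407.2 for complex V. Within complex IV, the 11 generally expressed subunits (Ndufa4 among them, now counted in this complex) had a median of 554.5 FPKM there. The highest single level in that column was 1418 FPKM for Atp5b, the catalytic beta subunit of complex V, and Cox4i1 and Ndufa4 had 1006 and 1091 FPKM. At the other end, the muscle isoform Cox8b was listed at 0 in all columns used, and the testis isoforms Cox7b2 and Cox8c reached at most 2.74 and 2.03 FPKM in any of them.

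What the members share beyond their function was first looked for in their promoters. RefSeq promoter windows (GRCm38.p6, 250 bases before to 50 bases after the start) were matched for 77 of the 94 genes, with 83 windows in all. A match on either strand to the palindromic core of the NRF1 site, bound by a transcription factor known for nuclear respiratory genes, was found in 20 of the 83 windows (24.1%), against 4.6% of all 32851 windows of the same length. Matches to CCGGAAG, as bound by ETS factors such as GABP, stood in 17 (20.5%, against 8.86%), and to the YY1 site in 7 (8.43%, against 0.852%). Members' windows also held more CpG dinucleotides, with a median of 20, against 7 for all windows. Each of the 3 motifs contains CpG, the windows were not matched for it, and its part in the motif shares was not tested. Of the 77 genes, 36 had at least 1 of the 3 motifs. A match is a stretch of letters and not a measured binding site. Windows are shown for 5 genes named in the results. Capitals mark matches, which are the NRF1 core in Ndufb4, Atp5g2 and Atp5k (any base is allowed at the sixth position of it) and CCGGAAG, read as its reverse complement, in Atp5e and Atp5k. Cox7a2l holds none of the 3. Coordinates are those of GRCm38.p6, whereas the RNA tables name mm9, and each sequence is read 5′ to 3′ on the gene's strand.
Ndufb4 (chr16:37654319-37654618, minus strand): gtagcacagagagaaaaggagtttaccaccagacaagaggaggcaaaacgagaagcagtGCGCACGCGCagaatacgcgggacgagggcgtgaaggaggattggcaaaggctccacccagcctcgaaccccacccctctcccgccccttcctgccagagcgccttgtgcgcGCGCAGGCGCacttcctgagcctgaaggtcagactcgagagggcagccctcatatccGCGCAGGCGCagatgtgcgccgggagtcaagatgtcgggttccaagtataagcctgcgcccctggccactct
Atp5g2 (chr15:102670998-102671297, minus strand): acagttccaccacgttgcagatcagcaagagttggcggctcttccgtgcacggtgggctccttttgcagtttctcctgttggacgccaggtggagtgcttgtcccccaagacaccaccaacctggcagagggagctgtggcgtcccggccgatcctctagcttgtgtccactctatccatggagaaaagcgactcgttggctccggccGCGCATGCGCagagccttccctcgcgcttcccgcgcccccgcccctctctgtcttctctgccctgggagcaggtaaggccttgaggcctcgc
Atp5e (chr2:174464052-174464351, minus strand): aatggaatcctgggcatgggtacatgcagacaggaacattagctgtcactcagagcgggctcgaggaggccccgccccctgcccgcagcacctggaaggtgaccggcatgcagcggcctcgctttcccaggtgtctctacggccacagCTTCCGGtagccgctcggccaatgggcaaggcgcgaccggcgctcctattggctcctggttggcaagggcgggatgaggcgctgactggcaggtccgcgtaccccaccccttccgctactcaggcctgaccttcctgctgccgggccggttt
Atp5k (chr5:108434350-108434649, minus strand): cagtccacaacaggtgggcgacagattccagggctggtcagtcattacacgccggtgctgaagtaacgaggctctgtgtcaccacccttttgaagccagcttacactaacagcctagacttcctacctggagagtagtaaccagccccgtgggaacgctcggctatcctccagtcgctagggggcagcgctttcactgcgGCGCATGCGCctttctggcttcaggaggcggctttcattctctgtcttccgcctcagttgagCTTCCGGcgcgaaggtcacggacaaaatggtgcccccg
Cox7a2l (chr17:83514284-83514583, minus strand): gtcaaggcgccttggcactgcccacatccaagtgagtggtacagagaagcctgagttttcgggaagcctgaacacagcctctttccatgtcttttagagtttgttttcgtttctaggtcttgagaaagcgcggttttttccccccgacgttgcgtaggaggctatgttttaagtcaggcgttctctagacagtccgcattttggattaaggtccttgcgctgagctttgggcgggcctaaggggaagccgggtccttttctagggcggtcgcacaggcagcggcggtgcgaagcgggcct
Set beside the comparison of DKO with WT epiblasts described further on, 5 of the 9 genes with a window that rose, 13 of the 24 that fell and 17 of the 41 that did not pass the test held at least 1 of the motifs.

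In Kmt2b KO epiblasts at E6.5 the members were close to WT. A member was kept where 2 or more columns of the table reached 1 FPKM, which left 90 of 94 (not Cox6a2, Cox7b2, Cox8b and Cox8c). Of these, 1 differed by 2-fold or more (1.11%), against 1.71% of all 11074 genes. It is Ndufs5, an accessory subunit of complex I, with 2.42 FPKM in KO and 0.00398 FPKM in WT. Within the Kmt2b table, Ndufs5 reached 1 FPKM only in the KO columns of E6.5 and E9.5. It so passed the filter only through the genotype in which it is high, and without it 0 of 89 members differed 2-fold. In the Tet1/2 table it had 4.10 FPKM in WT head replicate 1 and 0.00183 FPKM in WT head replicate 2, so it also varied between WT libraries. A pseudogene is named after this gene, and its level is uncertain here. The median difference of the 90 was -0.05, with -0.02 for all genes. Members of complex III were on the low side, 8 of 9 below WT (median -0.12), and the farthest was Uqcr11, an accessory subunit, at 186 FPKM in KO and 303 FPKM in WT (-0.70). Complex I had a median of -0.04, complex II of -0.14, complex IV of 0.09 and complex V of -0.10. Among named subunits, Ndufb8, an accessory subunit of the membrane arm, had 308 FPKM in KO and 432 FPKM in WT (-0.49), and Sdha, the flavoprotein of complex II, had 79.9 FPKM in KO and 105 FPKM in WT (-0.38). Cox7a1, the heart and muscle isoform, had 14 FPKM in KO and 8.81 FPKM in WT (0.61). For scale, the median SD of a member between the 3 WT epiblast libraries of the Tet1/2 table was 0.13 on the same scale. Single members varied more or less than that, with an SD of 0.92 for Cox7a1, 0.37 for Uqcr11, 0.066 for Ndufb8 and 0.065 for Sdha. Cox7a1 had 5.26, 14.9 and 3.69 FPKM in those WT libraries, a range that holds its KO value.

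At E8.5 the KO head again kept most members near WT, with 1 of 90 at 2-fold or more (1.11%), against 4.73% of all genes, and a median of -0.04, with -0.01 for all genes. That gene is Ndufa1, an X-linked accessory subunit needed to assemble complex I, with 67.5 FPKM in KO and 136 FPKM in WT (-1.003), and it lies on the threshold. The next largest differences went both ways. Ndufab1, the mitochondrial acyl carrier protein, had 21.9 FPKM in KO and 41.6 FPKM in WT (-0.89), and Ndufaf4, a complex I assembly factor, had 13.3 FPKM in KO and 24.2 FPKM in WT (-0.82). Atp5l and Atp5k, the g and e subunits of the complex V membrane part, differed in opposite directions. Atp5l had 141 FPKM in KO and 75.4 FPKM in WT (0.90), and Atp5k had 538 FPKM in KO and 925 FPKM in WT (-0.78). Atp5e, the epsilon subunit of the complex V head, had 366 FPKM in KO and 613 FPKM in WT (-0.74). In complex IV, Cox5b, a nuclear-encoded subunit present in all tissues, had 94.5 FPKM in KO and 54.9 FPKM in WT (0.77), and Ndufa4l2, a paralogue of Ndufa4 induced by low oxygen, had 5.91 FPKM in KO and 10.1 FPKM in WT (-0.69). Pseudogenes are named after Ndufab1, Atp5l, Atp5k and Cox5b, so the sizes given for these are uncertain. The complex medians ran from -0.17 (complex III, 7 of 9 lower) to 0.07 (complex IV). The summed FPKM of 5 epiblast markers was 37.4 in KO heads and 8.83 in WT heads, and that of 5 neural plate markers was 80.5 in KO and 124 in WT. The latter sum was 114.9 in WT epiblasts at E6.5, so it does not measure neural tissue alone. Red cell markers summed to 4.96 FPKM in KO and 98.0 FPKM in WT. The part of these in the members' differences was not tested.

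**Figure D1:**
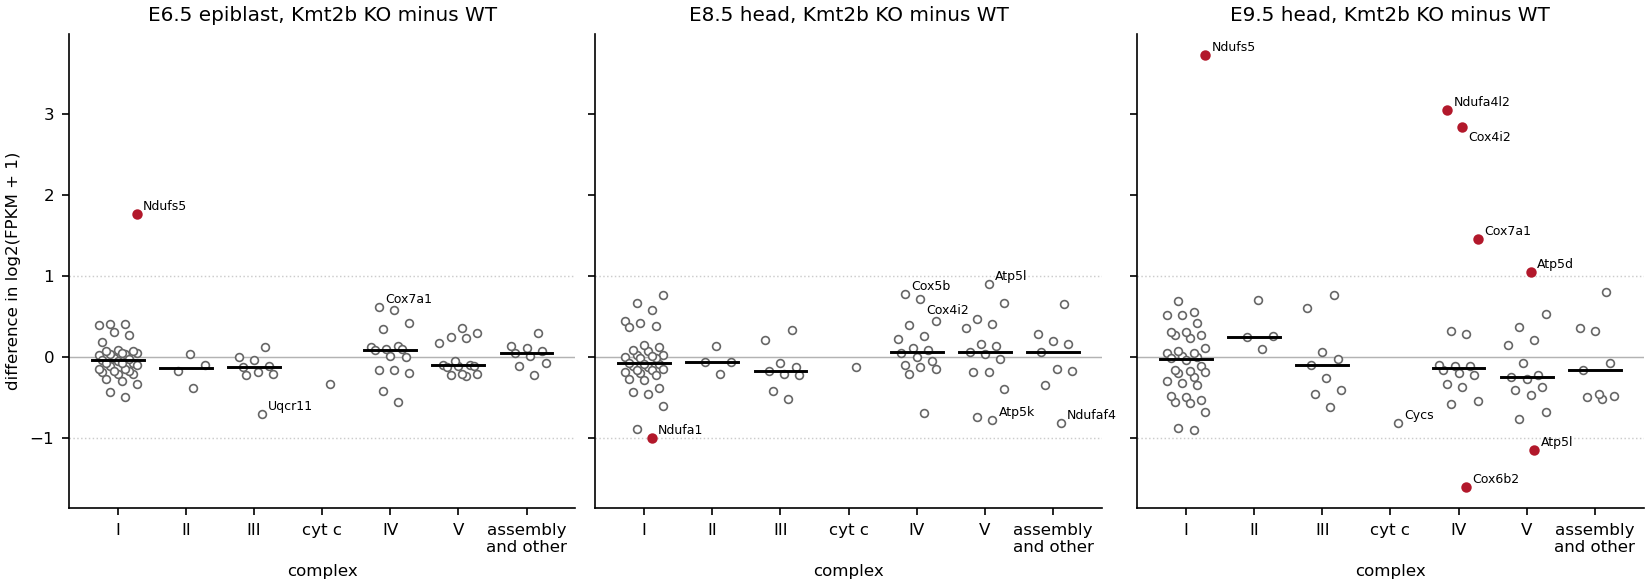
Difference between Kmt2b KO and WT in log2(FPKM + 1) for each member, by complex, at E6.5, E8.5 and E9.5. Each circle is 1 gene, red where it differs by 2-fold or more (dotted lines), and bars mark medians; 1, 1 and 7 members are red at the 3 stages.

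The E9.5 KO column is a single sample, and whether its tissue is that of the WT column cannot be told from the labels, so tissue and genotype cannot be told apart there. Of 90 members, 7 differed by 2-fold or more (7.78%), close to the 8.26% of all genes, with 5 higher and 2 lower in KO. One of the 5 is Ndufs5 (12.2 FPKM in KO and 0.000225 FPKM in WT), which passed the filter through KO columns only, and without it 6 of 89 members passed 2-fold (6.74%). Of the 5, 3 encode complex IV isoforms. Cox4i2, the isoform of subunit 4 known from lung and from hypoxia, had 40.0 FPKM in KO and 4.71 FPKM in WT (2.85). Ndufa4l2 had 9.47 FPKM in KO and 0.260 FPKM in WT (3.05), and Cox7a1 had 15.8 FPKM in KO and 5.12 FPKM in WT (1.46). Cox6a2, the muscle isoform of subunit 6a, had 7.88 FPKM in KO and was listed at 0 in WT and in every other column of the Kmt2b table. The fifth higher gene was Atp5d, the delta subunit of the complex V head, at 310 FPKM in KO and 149 FPKM in WT (1.05, and 0.90 once all columns were quantile-normalized together). Lower in KO were Cox6b2, a testis isoform, at 6.60 FPKM in KO and 22.1 FPKM in WT (-1.60), and Atp5l, at 147 FPKM in KO and 327 FPKM in WT (-1.15).

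Heart muscle markers differed in the same column. Of 10 such markers, 9 reached 1 FPKM in the E9.5 KO column and 3 in the WT column, with summed FPKM of 2714 in KO and 23.2 in WT, where Myl3, Nkx2-5 and Myh6 were listed at 0. The skeletal muscle markers Myod1 and Myog summed to 0.174 FPKM in KO and 0 FPKM in WT. The 5 red cell markers in the table summed to 5868 FPKM in KO and 15770 FPKM in WT. Their part in the members' values was not tested.

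The other subunits at E9.5 are given by complex. All 7 core subunits of complex I were above WT in the KO column as deposited (median 0.27), but Ndufv2 (0.0025) and Ndufs1 (0.01) lay almost at WT, and 5 of 7 were above it after centring on all genes or after quantile normalization of all columns together (median 0.12). They were led by Ndufs7 at 166 FPKM in KO and 102 FPKM in WT (0.70) and Ndufv1, which binds NADH, at 73.6 FPKM in KO and 49.6 FPKM in WT (0.56). Of the 29 accessory subunits of the same complex, 19 were below WT (median -0.18, and 23 after quantile normalization), the lowest being Ndufa12, at 60.4 FPKM in KO and 114 FPKM in WT (-0.90). Complex II was above WT for 4 of 4 genes as deposited (median 0.25) and for 3 of 4, without Sdha, after quantile normalization (median 0.13), with Sdhd, a membrane anchor, at 280 FPKM in KO and 172 FPKM in WT (0.70). In complex III, Uqcrc1, a core protein, was at 214 FPKM in KO and 126 FPKM in WT (0.76), and Cyc1, the cytochrome c1 subunit, at 165 FPKM in KO and 108 FPKM in WT (0.61), while Uqcrb was at 380 FPKM in KO and 582 FPKM in WT (-0.61). Cycs, cytochrome c, had 122 FPKM in KO and 217 FPKM in WT (-0.82). Of the 11 general complex IV subunits, 10 were below WT (median -0.20). The exception was Cox4i1, at 1073 FPKM in KO and 859 FPKM in WT (0.32). Complex V had a median of -0.25, with the catalytic Atp5a1 (382 FPKM in KO and 331 FPKM in WT) and Atp5b (1118 FPKM in KO and 867 FPKM in WT) above WT. The c ring gene Atp5g3 was below it, at 638 FPKM in KO and 1018 FPKM in WT (-0.67). The signs of the medians of complexes I to V were the same after both scalings.

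The WT columns of the same table show how much these genes differed with stage. Between WT heads at E9.5 and at E8.5 the median member was 0.30 higher at E9.5, with -0.06 for all genes, and 17 of 90 passed 2-fold (18.9%, 12 higher and 5 lower), against 19.1% of all genes. With all columns quantile-normalized together the median was 0.18. Red cell markers summed to 15770 FPKM at E9.5 and 98.0 FPKM at E8.5 in WT, and their part in these differences was not tested. Cycs had 217 FPKM at E9.5 and 100.5 FPKM at E8.5 (1.10), Atp5l had 327 FPKM at E9.5 and 75.4 FPKM at E8.5 (2.10), and Cox5b had 165 FPKM at E9.5 and 54.9 FPKM at E8.5 (1.57). This comparison shares the E9.5 WT column with that of KO and WT at E9.5, so the signs of the pair are not independent. Complex I core subunits had a median of -0.28 and accessory ones of 0.25, complex II of -0.36, general complex IV subunits of 0.69 and complex V of 0.52; after quantile normalization the last 2 were 0.41 and 0.36. Cytosolic ribosomal protein genes had a median of 0.88 and mitochondrial ones of 0.02 between the same columns. The E9.5 columns do not share the value distribution of the others.

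In the Tet1/2 DKO epiblast, members were more often lower than higher. Of 90 tested, 39 passed a limma adjusted p under 0.05 (43.3%), against 35.2% of all 11265 genes. Of these, 28 fell and 11 rose, whereas of all genes 15.2% fell and 20.1% rose. The members' median was -0.21, with 0.05 for all genes. The 5 epiblast markers summed to 1293 and 1180 FPKM in DKO epiblasts, against 835, 878 and 813 FPKM in WT epiblasts, without overlap, and their part in the members' differences was not tested. Complex I had 11 subunits that fell and 3 that rose, complex III 3 and 1, complex IV 7 and 3, and complex V 6 and 3, and cytochrome c fell. None of the 4 complex II genes passed the test, 2 of which had an unadjusted p under 0.05. Of the complex I core subunits, Ndufv1 passed, upwards (0.23, SE 0.0699, adjusted p = 0.0354), while Ndufs3 (-0.36, adjusted p = 0.0545) and Ndufv2 (-0.31, adjusted p = 0.0547) missed the threshold narrowly. Of 28 accessory subunits tested, 11 fell, and the difference between core and accessory subunits was not tested. Within complex IV, all 7 that fell were general subunits and all 3 that rose (Ndufa4l2, Cox6b2 and Cox7a2l) belonged to the isoform and Cox7a2l class. Each of these values compares the sample sets as well as the genotypes.

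**Figure D2:**
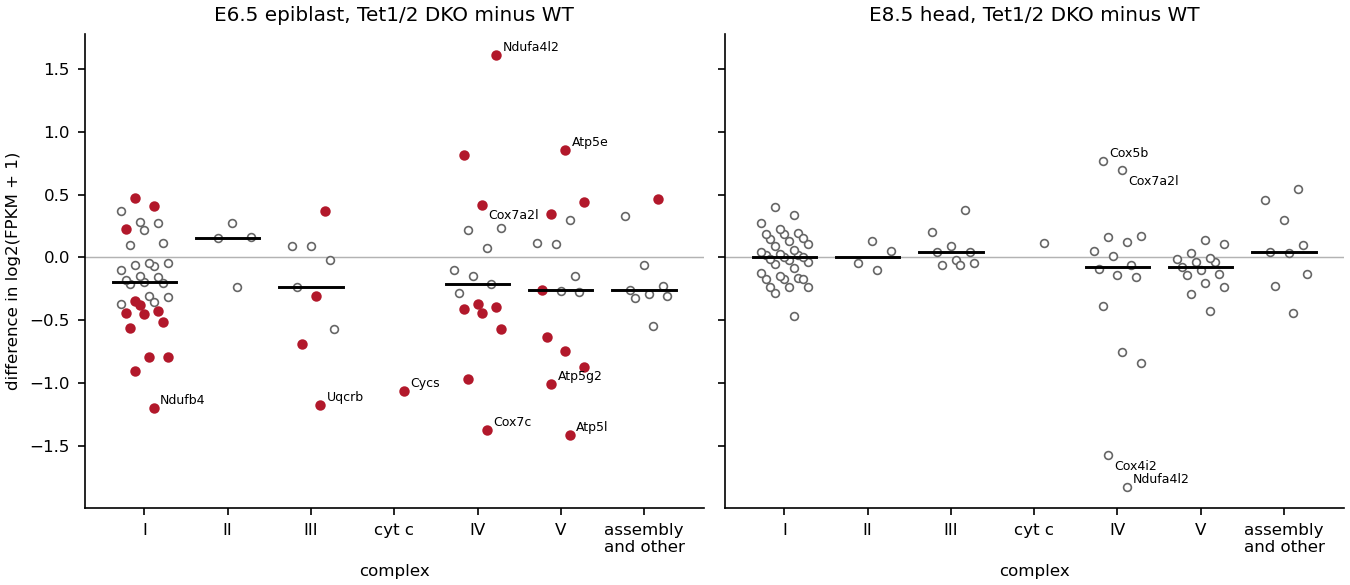
Difference between Tet1/2 DKO and WT in log2(FPKM + 1) for each member, by complex, in E6.5 epiblasts and in E8.5 heads. Each circle is 1 gene, red where limma's adjusted p is under 0.05, and bars mark medians; 39 members are red in the epiblast and 0 in the head.

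The largest decreases in the DKO epiblast included small accessory subunits and cytochrome c. Atp5l had 72.1 and 79.9 FPKM in DKO epiblasts, against 197, 217 and 197 FPKM in WT epiblasts (-1.41, SE 0.188, adjusted p = 0.00129). Cox7c, a small complex IV subunit, had 36.4 and 39.3 FPKM in DKO, against 98.9, 108 and 91.2 FPKM in WT (-1.37, SE 0.114, adjusted p = 0.00026). Uqcrb, a small accessory subunit of complex III, had 159 and 182 FPKM in DKO, against 376, 380 and 399 FPKM in WT (-1.17, SE 0.0929, adjusted p = 0.000217). In these genes all DKO libraries lay below all WT libraries. Cycs had 60.0 and 65.7 FPKM in DKO, against 139, 125 and 133 FPKM in WT (-1.06, SE 0.0866, adjusted p = 0.000234). Ndufb4, an accessory subunit of the complex I membrane arm, had 9.20 and 6.91 FPKM in DKO, against 14.4, 22.4 and 23.4 FPKM in WT (-1.20, SE 0.217, adjusted p = 0.00452). Again the groups did not overlap. Other genes that fell include Cox7b (-0.96), Ndufa11 (-0.90), Atp5h (-0.87) and Atp5f1 (-0.75), the last of which encodes the b subunit of the complex V stalk.

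Some members rose in the DKO epiblast. Atp5e had 467 and 497 FPKM in DKO epiblasts, against 266, 278 and 255 FPKM in WT epiblasts (0.85, SE 0.0916, adjusted p = 0.000565). Cyc1 had 434 and 441 FPKM in DKO, against 323, 350 and 341 FPKM in WT (0.37, SE 0.0633, adjusted p = 0.00353). The groups were again apart. Subunits of the same assembly thus differed in opposite directions: Cyc1 rose while Uqcrb fell in complex III, and Atp5e, Atp5d (0.44) and Atp5o (0.35) rose while 6 others of complex V fell. Ndufa4l2 had 7.13 and 17.1 FPKM in DKO, against 2.37, 3.91 and 2.84 FPKM in WT (1.61, SE 0.320, adjusted p = 0.00667), with a wide gap between its DKO libraries. Ndufs6, a zinc-binding subunit of complex I, rose by 0.47 (SE 0.0707, adjusted p = 0.00198), and Ndufa8 by 0.41. Of the 20 largest of these calls, 16 held under every alternative setting, and Cox6b2, Ndufa12, Uqcrc2 and Cox5b did not.

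**Figure D3:**
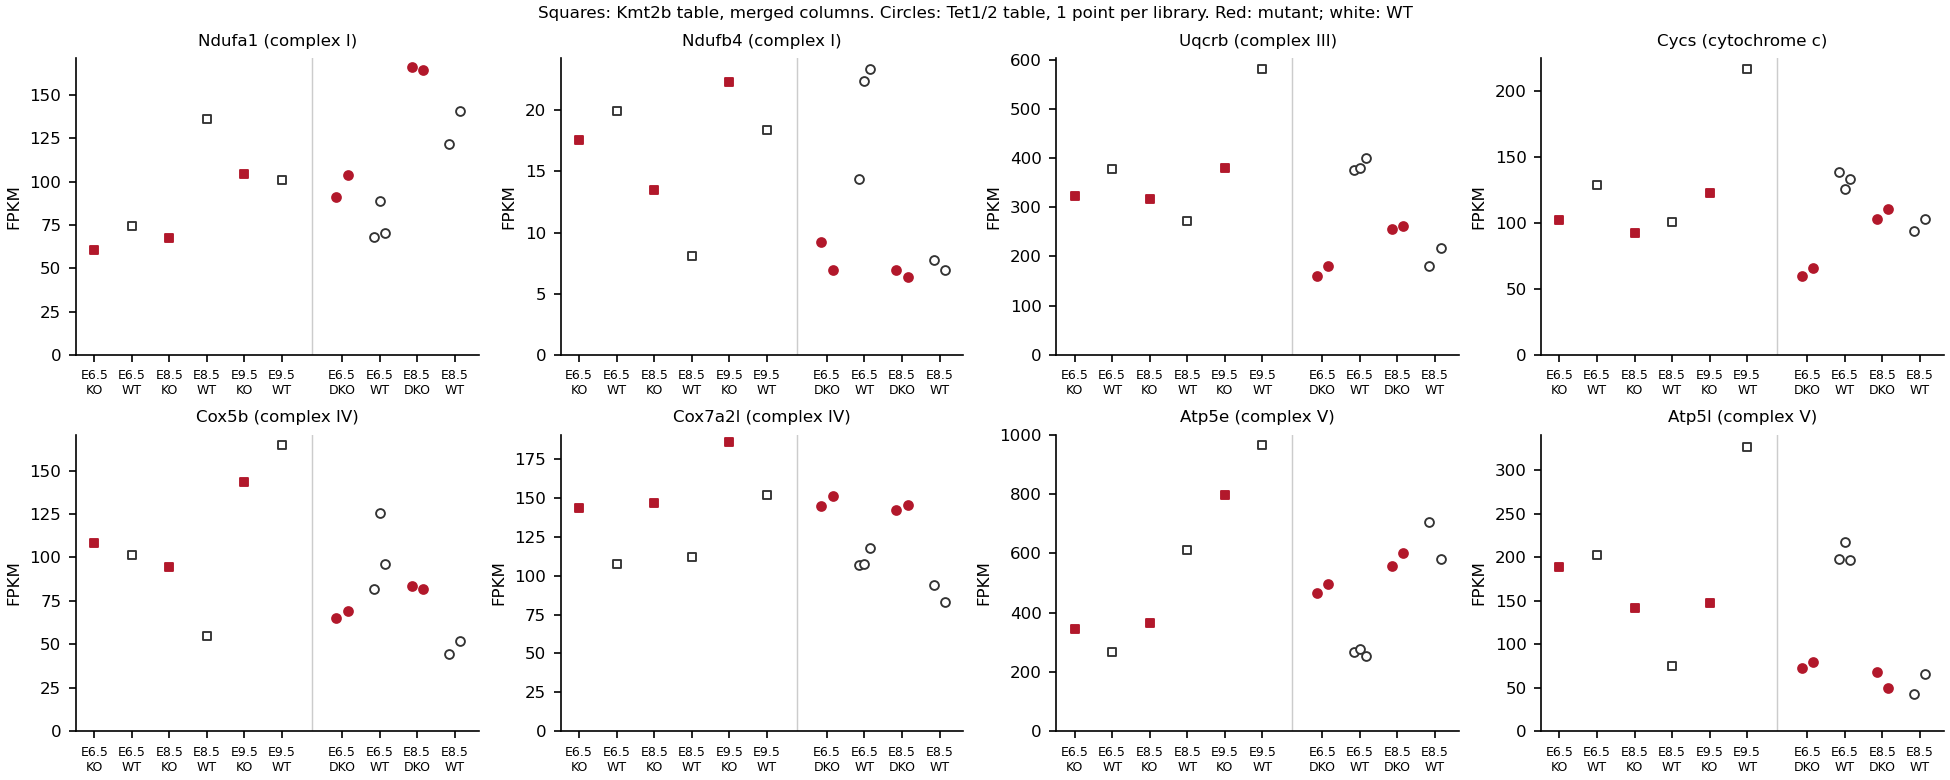
FPKM of 8 members in every column used, with mutant (red) left of WT (white) at each stage. Squares are merged columns of the Kmt2b table and circles single libraries of the Tet1/2 table; Atp5l, Uqcrb, Cycs and Ndufb4 are lower in both DKO epiblasts than in all 3 WT epiblasts, and Cox7a2l is higher in mutant than in WT in all 5 pairs of groups.

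Pseudogenes carrying the gene's name in RefSeq exist for 14 members, and reads of such genes may be shared or lost, depending on how the authors counted them. Of the 13 that were tested, 10 passed in the DKO epiblast (76.9%), against 29 of the 77 others (37.7%). In the comparison of WT stages, 11 of these 13 passed (84.6%), against 28 of the 77 others (36.4%). Atp5l, Atp5k, Cox7c, Cycs, Ndufa11, Ndufab1, Atp5f1, Cox5b, Ndufs6 and Ndufa12 are among the 14, so their sizes are uncertain. Uqcrb, Ndufb4, Cox7b and Atp5g2 are not, but copies under other names were not searched for. The part of such copies in any of these sizes was not tested. Without the 14, the members' median in the DKO epiblast was -0.20. Medians of other gene groups of the mitochondrion lay nearer to 0: mitochondrial ribosomal proteins had a median of -0.05 (15 of 76 fell and 7 rose), citric acid cycle and pyruvate dehydrogenase genes of -0.07 (2 of 19 fell and 1 rose), and assembly factors outside the symbol rule of -0.11 (7 of 30 fell and 1 rose). Cytosolic ribosomal proteins had a median of -0.76, with 62 of 100 falling and 14 rising. Of all 11265 genes, 15.2% fell and 20.1% rose in the same comparison. Differences between these lists were not tested.

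Between WT heads and WT epiblasts of the Tet1/2 table, 39 of 90 members changed (43.3%, 14 higher and 25 lower in heads), against 36.9% of all genes, of which 19.9% were higher and 17.1% lower. Without WT head replicate 1 the count of members was 23, which was not set beside that of all genes in the same fit. Tissue changes together with stage here. With the WT epiblasts taken from the Kmt2b set, so does the sample set, and the 3 cannot be told apart. Atp5e had 705 and 580 FPKM in WT heads, against 266, 278 and 255 FPKM in WT epiblasts (1.26, SE 0.0916, adjusted p = 4.36e-05). Cox7c had 39.6 and 32.8 FPKM in WT heads, against 98.9, 108 and 91.2 FPKM in WT epiblasts (-1.44, SE 0.114, adjusted p = 6.66e-05). For both genes the stages did not overlap. Atp5l fell by 1.93 in heads (SE 0.188), Ndufb4 by 1.31 (SE 0.217), Cox5b by 1.03 (SE 0.163) and Uqcrb by 0.95 (SE 0.0929), and Cox4i2 rose by 2.72 (SE 0.411), all past the threshold. Sdhc, a membrane anchor of complex II, was higher in heads by 0.70, as were the X-linked complex I genes Ndufa1 by 0.79 and Ndufb11 by 0.77. Of the 7 complex I core subunits, 3 fell in heads and 0 rose. The merged WT columns of the Kmt2b table were taken to share the epiblast samples. They gave 1.20 for Atp5e, -1.25 for Cox7c, -1.42 for Atp5l, -1.20 for Ndufb4 and 2.36 for Cox4i2.

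The stage comparison and that of DKO with WT epiblasts use the same 3 WT epiblast libraries, so their likeness is not a result. Side by side, the head-minus-epiblast and DKO-minus-WT epiblast differences were -1.93 and -1.41 for Atp5l, -1.44 and -1.37 for Cox7c, -1.31 and -1.20 for Ndufb4, -0.95 and -1.17 for Uqcrb, 1.26 and 0.85 for Atp5e, and 0.67 and 0.47 for Ndufs6. Others went opposite ways. Cyc1 was lower in heads (-0.44) and higher in DKO epiblasts (0.37), and Ndufb11 was higher in heads (0.77) and lower in DKO epiblasts (-0.56).

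In Tet1/2 DKO heads, compared with WT heads of the same set, 0 of 89 members passed an adjusted p under 0.05 by limma, against 0.433% of all 10867 genes, and 19 had an unadjusted p under 0.05 (21.3%), against 16.8% of all genes. The median difference was -0.01, with -0.02 for all genes, and its sign turned when centred on all genes. Libraries of the 2 genotypes did not overlap for 48 of the 89 members (53.9%, 21 higher and 27 lower in DKO), against 60.4% of all genes. The medians of complexes I to V ran from -0.07 to 0.05. The 3 members nearest to the threshold are all listed under complex IV. Cox7a2l, a factor that joins complexes III and IV into supercomplexes, had 142 and 146 FPKM in DKO heads, against 94.1 and 83.4 FPKM in WT heads (0.69, SE 0.0867, adjusted p = 0.0507). Cox4i2 had 6.39 and 5.21 FPKM in DKO heads, against 18.2 and 20.1 FPKM in WT heads (-1.57, SE 0.193, adjusted p = 0.0507). Cox5b had 83.5 and 81.9 FPKM in DKO heads, against 44.6 and 52.0 FPKM in WT heads (0.77, SE 0.103, adjusted p = 0.0592). In each case the 2 DKO libraries lay on the same side of both WT libraries.

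Of the 5 complex IV isoforms measured in heads, Cox7a2l included, 4 lay below WT in DKO (median -0.84). Ndufa4l2 had 3.11 and 2.80 FPKM in DKO heads, against 14.6 and 11.5 FPKM in WT heads (-1.82, SE 0.379, adjusted p = 0.126). Cox6b2 had 7.41 and 11.1 FPKM in DKO heads, against 14.05 and 20.6 FPKM in WT heads (-0.84), and Cox7a1 had 5.56 and 5.30 FPKM in DKO heads, against 7.82 and 12.2 FPKM in WT heads (-0.75). None of these passed the test. Heart muscle markers summed to 8.88 and 5.59 FPKM in DKO heads, against 37.9 and 215.6 FPKM in WT heads, and 3 of 10 reached 1 FPKM in each DKO head, against 7 and 9 in the WT heads. Red cell markers summed to 377 and 4.51 FPKM in DKO heads, against 0.538 and 0.0887 FPKM in WT heads. Their part in the isoform values was not tested.

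**Figure D4:**
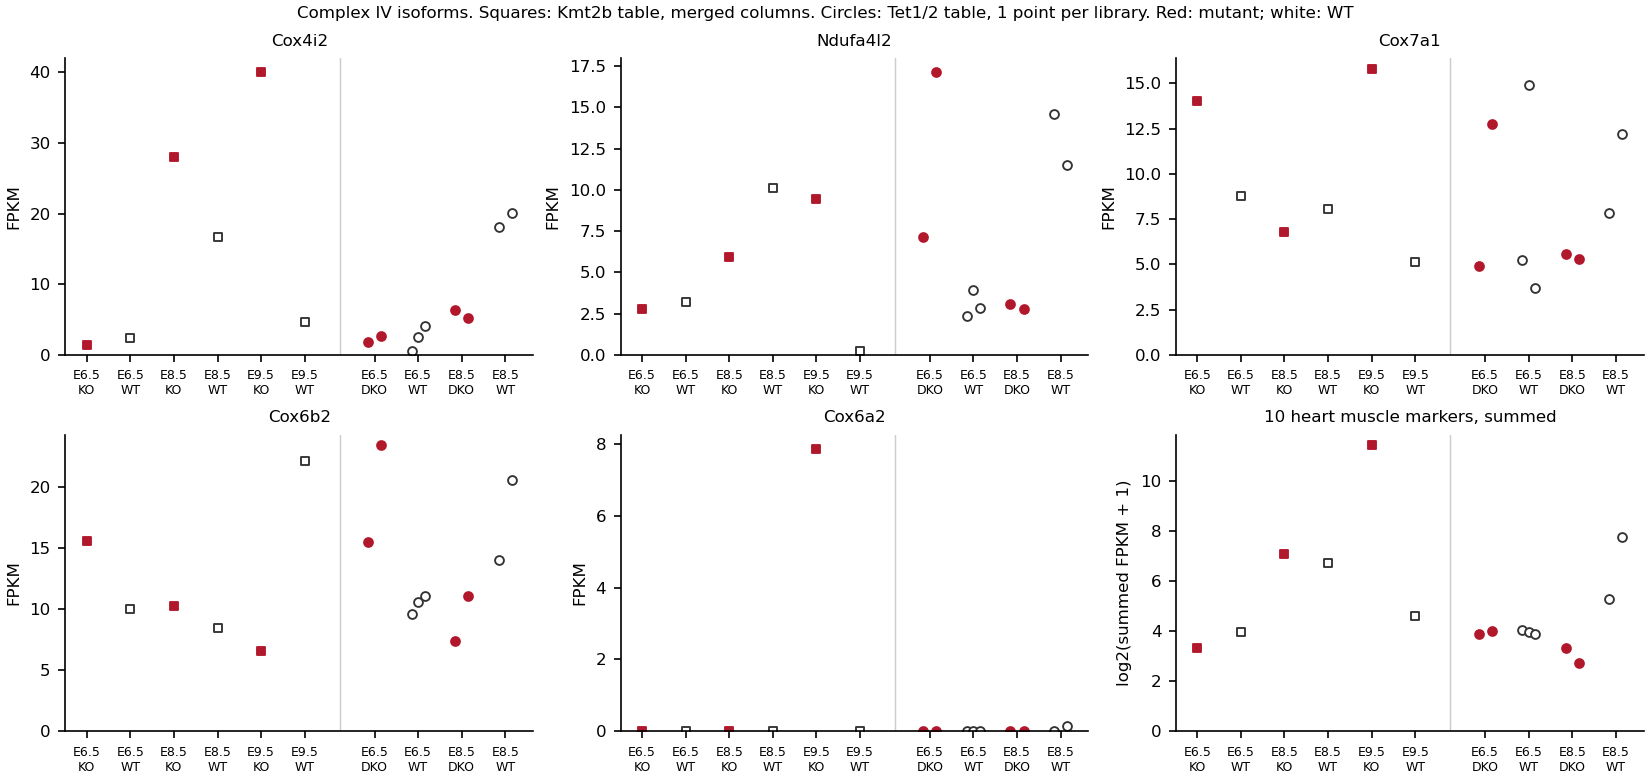
FPKM of 5 complex IV isoforms and the log2 of the summed FPKM (plus 1) of 10 heart muscle markers in every column used, with mutant (red) left of WT (white) at each stage. Squares are merged Kmt2b columns and circles single Tet1/2 libraries; Cox4i2, Ndufa4l2, Cox7a1, Cox6a2 and the marker sum are higher in KO than in WT at E9.5, and Cox4i2 and Ndufa4l2 are lower in both DKO heads than in both WT heads.

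The minor isoforms stayed small parts of their families throughout. Cox4i2 made up 3.60% of the FPKM of the subunit 4 pair in the E9.5 KO column and 0.545% in WT, 2.65% in the E8.5 KO column and 1.72% in WT, and 0.704% and 0.611% in DKO heads, against 1.80% and 2.06% in WT heads. Cox6a2 reached 1.61% of its pair in the E9.5 KO column. The 3 genes for the c ring subunit of complex V, whose mature proteins are the same, differed in their shares. Atp5g2 held 41.0%, 38.4% and 31.1% of their summed FPKM in Kmt2b KO at E6.5, E8.5 and E9.5, against 34.7%, 26.7% and 17.2% in WT. In DKO epiblasts it held 20% and 19.9%, against 33.4%, 35.9% and 32.7% in WT epiblasts, and in DKO heads 24.5% and 23.8%, against 25.9% and 24.6% in WT heads. At E8.5, Atp5g2 itself had 388 FPKM in KO heads and 244 FPKM in WT heads (0.67), and in epiblasts 172 and 174 FPKM in DKO, against 314, 390 and 344 FPKM in WT (-1.01, SE 0.0927, adjusted p = 0.000357). Its share of the family was therefore above WT in the Kmt2b KO columns and below WT in the DKO epiblast.

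Whether genotype differed with stage was asked with an interaction term, the DKO-minus-WT difference in heads minus that in epiblasts. It passed for 34 of 90 members (37.8%, 23 positive and 11 negative), against 26.4% of all genes, with a median of 0.20, and -0.06 for all genes. The count of members was 22 without WT head replicate 1, 18 without DKO head replicate 1 and 21 without DKO head replicate 2. These were not set beside the counts of all genes in the same fits. Uqcrb was at 255 and 262 FPKM in DKO heads, against 181 and 217 FPKM in WT heads, and its interaction was 1.55 (SE 0.138, adjusted p = 0.000819). Cycs was at 103 and 110 FPKM in DKO heads, against 93.6 and 103 FPKM in WT heads (interaction 1.18, SE 0.128, adjusted p = 0.00129). The epiblast side of the term again sets one sample set against the other.

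The members' differences between Kmt2b KO and WT heads at E8.5 ran against their stage differences in WT, as did those of all genes. They were set against the stage difference of the Tet1/2 table, which shares no samples with the E8.5 Kmt2b columns. In that difference the tissue, and the sample set as taken here, change together with stage. Over 89 members, Pearson's r was -0.45 and Spearman's rho -0.489, and 59 had opposite signs (66.3%), against 6904 of all 10759 genes (64.2%). Over all genes r was -0.384, over 76 mitochondrial ribosomal protein genes -0.739 and over 98 cytosolic ones -0.671. Points are genes of the same columns and not replicates, so no p is given. Members with a named pseudogene had r = -0.848 (13 genes) and the others -0.281 (76 genes). Atp5l (0.90 in KO, -1.93 with stage), Cox5b (0.77, -1.03), Ndufb4 (0.67, -1.31) and Atp5g2 (0.67, -0.58) lay at one end, and Ndufa1 (-1.003, 0.79), Atp5e (-0.74, 1.26) and Ndufa4l2 (-0.69, 1.81) at the other. Cox4i2 went against this pattern, at 0.71 in KO and 2.72 with stage.

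**Figure D5:**
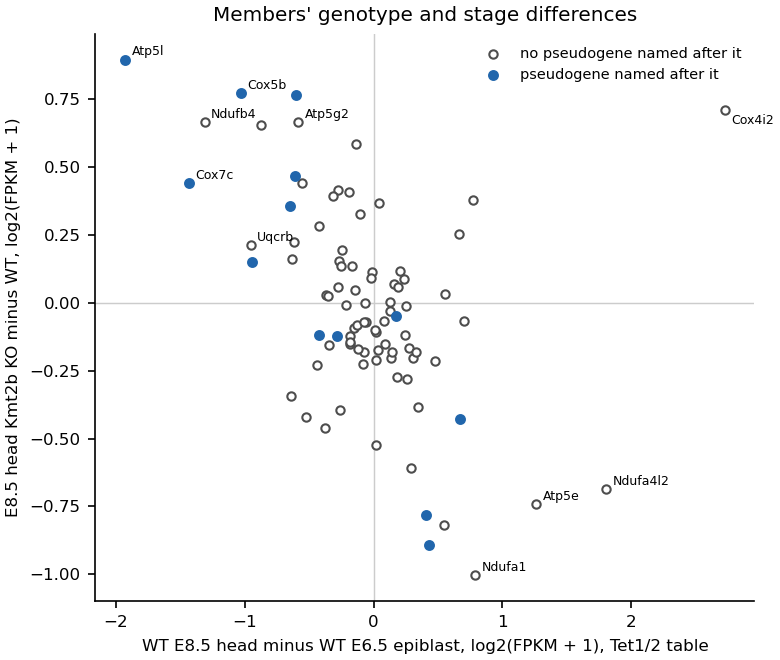
Difference between Kmt2b KO and WT heads at E8.5 (vertical) against the difference between WT heads and WT epiblasts of the Tet1/2 table (horizontal), both in log2(FPKM + 1). Each point is 1 of 89 members, blue where a pseudogene is named after it; r is -0.45, and Atp5l and Atp5e lie at opposite ends.

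Few members differed the same way in every mutant measured against controls of its own set, which are Kmt2b KO at 3 stages and DKO heads. A difference of at least 0.25 above WT in all 4 was seen for 2 of 89 members, against 42 of 10526 genes, and one of at least 0.25 below WT for 0 members, against 65 genes. With all Kmt2b columns quantile-normalized together the first was 1 member, Ndufaf7, against 39 genes, since Cox7a2l then lay 0.15 above WT at E9.5. One of the 2 is Cox7a2l, with 144, 147 and 186 FPKM in Kmt2b KO at E6.5, E8.5 and E9.5, against 108, 112 and 152 FPKM in WT (0.41, 0.39 and 0.29). In DKO epiblasts it had 145 and 151 FPKM, against 107, 108 and 118 FPKM in WT epiblasts (0.42, SE 0.0826, adjusted p = 0.0064). The other is Ndufaf7, a methyltransferase that acts on complex I during assembly, with 27.7, 21.2 and 16.3 FPKM in KO, against 22.4, 13.1 and 12.5 FPKM in WT, and 15.6 and 18.3 FPKM in DKO heads, against 12.99 and 11.2 FPKM in WT heads. Ndufaf7 lay below WT in DKO epiblasts, at 17.0 and 19.7 FPKM, against 22.7, 24.3 and 21.7 FPKM in WT epiblasts (-0.31, adjusted p = 0.0918). The 4 comparisons use separate libraries, and these genes were singled out after their values were seen.

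Genes that support the complexes without matching the symbol rule gave a background for the Kmt2b comparisons. Of 30 assembly factors, 23 were below WT in KO at E6.5 (median -0.17) and 23 at E8.5 (median -0.21). Of all 11074 genes, 5770 were below WT at E6.5 and 5599 at E8.5. At both stages 0 of the 30 differed 2-fold, against 1.71% and 4.73% of all genes. Their E9.5 median was 0.04, which changed sign after quantile normalization. Citric acid cycle and pyruvate dehydrogenase genes had medians of -0.09, 0.03 and 0.20 at the 3 stages, and genes of mitochondrial import and cristae of -0.05, -0.11 and 0.15. At E9.5 quantile normalization lowered these to 0.07 for the first and 0.01 for the second. Mitochondrial ribosomal proteins had a median of -0.18 at E8.5, with 55 of 76 below WT, against 5599 of all 11074 genes. Cytosolic ones had medians of 0.28 at E6.5 and 0.47 at E8.5. At E8.5, 17 of these 98 were 2-fold higher in KO, against 246 of all 11074 genes.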

How the data were processed

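RNA was read from 2 tables of FPKM deposited by the authors, made from Smart-seq2 libraries per the labels' protocols. TopHat2 (version 2.0.11) and Cufflinks (version 2.0.2) and the build mm9 are named in the submitters' processing notes. After sorting, the E6.5 and E8.5 columns of the Kmt2b table match rank by rank within 0.507% and those of the Tet1/2 table within 0.208%, as quantile normalization leaves them. At E9.5 the largest deviation was 41.1% in KO and 72.3% in WT. Summed FPKM were 451779 to 505676 and 459560 to 459595 per column, and read depth is unknown. Left out were 2 columns of the Kmt2b table that belong to none of the samples and 27 rows with dates for names. Methylation files were not used.

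Values were taken as log2(FPKM + 1), which understates changes of low genes, and a gene was kept where 2 or more of the fitted columns reached 1 FPKM (90 members in the Kmt2b table, 89 in the Tet1/2 heads, 90 in the whole Tet1/2 table). The Tet1/2 table was tested in R 4.3.3 using limma 3.58.1 (moderated by eBayes, trend on, two-sided, Benjamini-Hochberg adjusted over all genes, threshold 0.05). The head comparison used DKO epiblasts and all heads, the others all 9 libraries. The test planned for the Kmt2b set could not be run on merged columns, so 2-fold differences were counted. Members, gene lists and settings were chosen with earlier results of these data known. Named genes are the members past the threshold or 2-fold with at least 5 FPKM (up to 20 per comparison by size), the extremes of each complex, a set of core subunits, and the isoforms. Ndufs7, Ndufa8, Atp5o, Ndufab1, Ndufaf4, Ndufs1, Ndufs3, Ndufv2 and the pair shared by 4 comparisons were chosen after their values were seen. The fit was tested on simulated data.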

Additional observations from a re-analysis of the deposited data

Results flagged for a closer look

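The DKO-minus-WT difference was not the same in E8.5 heads and E6.5 epiblasts for 34 of the 90 members, by limma's test of the interaction (Benjamini-Hochberg adjusted p under 0.05, log2(FPKM + 1), heads minus epiblasts). The same test passed for 26.4% of all 11265 genes. Without WT head replicate 1 the number of members was 22, without DKO head replicate 1 it was 18 and without DKO head replicate 2 it was 21. These numbers were not set beside those of all genes in the same fits. WT epiblasts were taken to come from the Kmt2b set, so sample set and genotype cannot be told apart on the epiblast side. The 20 members with the largest interactions are given by complex.

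In complex I the interaction was 1.19 for Ndufa12, 1.08 for Ndufb4, 0.93 for Ndufa13 and 0.66 for Ndufb6. In complex III it was 1.55 for Uqcrb, and it was 1.18 for Cycs. In complex IV it was -3.43 for Ndufa4l2, -1.65 for Cox6b2, 1.33 for Cox5b, 0.98 for Cox7c and 0.97 for Cox7b. Among these, Ndufa4l2 and Cox6b2 were higher in DKO than in WT epiblasts and lower in DKO than in WT heads, where neither passed the test. In complex V it was 1.55 for Atp5l, 0.88 for Atp5g2, 0.85 for Atp5f1, 0.67 for Atp5h and 0.62 for Atp5j, and it was -0.995 for Atp5e and -0.86 for Atp5d. Among genes that encode no subunit it was -0.90 for Atp5sl and 0.76 for Ndufaf7. Of the 20, 13 kept their call under every alternative setting, and Ndufa12, Ndufb4, Atp5j, Ndufb6, Ndufaf7, Cox6b2 and Atp5h did not.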

How the results depend on the processing

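Of 132 values of summary results under alternative settings, 118 were labelled the same. For a count of members this meant a value within a fixed ratio of the main one, so such counts could still lose or gain calls. For a median it meant a shift within the spread between libraries. Beyond these limits 7 counts fell, 4 counts rose and 3 medians moved, all given in the text. The DKO head median, which lay within that spread of 0, was -0.01 and turned to 0.008 when centred on all genes, to 0.004 without WT head replicate 2 and to 0.0008 without DKO head replicate 2. Of 845 values of single members, 763 kept their call, 75 lost it, 7 gained it and 0 reversed. At a pseudocount of 5 FPKM, no E6.5 member (0) and no E8.5 member (0) differed 2-fold in Kmt2b KO, and centring on all genes also left 0 for E8.5. Quantile normalization of all columns together moved the members' median at E9.5 to -0.20 and that of WT E9.5 minus WT E8.5 heads to 0.18. In DKO heads, 2 members passed at a pseudocount of 5 FPKM (Cox7a2l and Cox4i2), 1 when centred (Cox7a2l), 2 in a fit of all 9 libraries (Cox7a2l and Ndufa4l2) and 7 in a fit of the heads alone, a setting chosen after seeing the data. Centring moved the interaction's median to 0.27. Leaving out 1 library at a time gave 31 to 40 members called in the DKO epiblast, 0 to 0 in DKO heads, 23 to 36 between WT stages and 18 to 33 for the interaction. These counts were not set beside those of all genes in the same fits. The members' medians ran from -0.27 to -0.16 in the DKO epiblast, from -0.03 to 0.00 in DKO heads, from -0.10 to -0.06 between WT stages and from 0.15 to 0.25 for the interaction. Deviations of same-numbered libraries had r = 0.0588, 0.102 and 0.0341, and so few libraries cannot show whether samples were paired. With a replicate block 35 members passed in the DKO epiblast and 0 in DKO heads. The merged columns of the Kmt2b table allow no replicate to be left out. FPKM give no depth, so the precision of low members is unknown. The causes were not tested.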
